A study of Mus musculus with 8 samples.

Results

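Interferon-stimulated genes were followed in haematopoietic stem and progenitor cells (HSPCs) of the mouse, in 8 cultures in which the Polycomb gene Pcgf1 was or was not knocked down. The set was a fixed list of 40 mouse symbols. A member was measured by a non-control array probe whose transcript accession maps to its symbol, and the brightest probe stood for a gene with several. Of the 40, 36 had a matched probe, and 32 of these passed a filter (well above background on each of the 4 arrays of 1 group or of both) and were tested beside the other genes of the array (17301 tested in all). Gbp4, Gbp6, Iigp1 and Ifi44 had a probe that did not pass this filter. No probe was matched for Mx1, Mx2, Ifi203 and Xaf1, which are not analysed here.

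Retroviruses carried either an shRNA against Pcgf1 or a control shRNA, and each of 4 mice gave 1 culture of either kind, so that each group held 4 cultures. The Pcgf1 protein belongs to PRC1.1, a Polycomb complex that attaches ubiquitin to histone H2A and silences genes. All 8 cultures carried the genotype Runx1 Δ/Δ, on a background that mixes C57Bl/6 and 129SvJ, so that every value describes cells without a normal Runx1, a transcription factor of blood formation. Lineage-depleted bone marrow was cultured for 2 days with mSCF, hFlt3 Ligand, hIL-11 and mIL-3, both groups received virus, and both were kept in puromycin (5 µg/ml) for 36 h before total RNA was taken and hybridised to 1-colour Agilent arrays. Neither an interferon nor another inducer of these genes is named in the labels, while the virus and the selection were common to both groups. The sources used here do not give how and when Runx1 was deleted.

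Values are log2 signals with the 75th percentile of each array's probes set to 0, so that a difference of 1 is a doubling and a value below 0 is not an absence. That percentile lay between 519.0 and 854.2 intensity units, 54.8% to 62.0% of the 43379 non-control spots on an array were well above background, and 0 spots were saturated. The number of arrays, 4 per group, limits the precision. Pcgf1 itself read −1.63, −1.64, −1.74 and −1.35 with the Pcgf1 shRNA in mice 1 to 4, against −0.24, −0.23, −0.45 and −0.01 with the control shRNA. This is a log2 change of −1.36 (SE 0.12, limma adjusted p = 0.0197), which left 39.0% of the transcript. An exact two-sided permutation test of 4 against 4 values, which does not pair the cultures of a mouse, gave p = 0.0286, the smallest it can give. Runx1 averaged 0.97 ± 0.18 with the Pcgf1 shRNA and 0.70 ± 0.22 with the control shRNA (SD, n = 4 each, adjusted p = 0.473), on a probe whose place relative to the deletion is unknown. After the group means were taken out, the r across genes between the 2 arrays of a mouse was 0.44, 0.48, 0.41 and 0.64 for mice 1 to 4, while the highest r with an other-group array of a different mouse was 0.25, 0.25, 0.17 and −0.22. Both arrays of mouse 4 stood apart from the other 6, so values without mouse 4 are given where a result rests on it. Of the HSPC markers 10 of 10 were tested, with summed linear signals (in units of the 75th percentile) of 49.0 to 61.4 with the Pcgf1 shRNA and 36.7 to 41.3 with the control shRNA. The sums for B, T and NK cell markers were 3.93 to 5.09 and 3.91 to 6.05.

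Type I interferons signal through the receptor of Ifnar1 and Ifnar2 and the kinases Jak1 and Tyk2 to a transcription factor complex that contains Irf9 and binds the interferon-stimulated response element (ISRE). Interferon gamma acts through its own receptor and on genes with the gamma-activated sequence (GAS). The induced proteins inhibit viral entry, translation and replication, sense foreign nucleic acid, or attack membranes around pathogens. In blood-forming tissue, interferons drive quiescent stem cells into cycle, and stem cells are known to express some of these genes without infection.

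The letters of the ISRE core were frequent upstream of the members. In the 250 bases before each RefSeq transcription start (GRCm38.p6), GAAANNGAAA was found on either strand in 12 of 25 tested members that had such a window (48.0%), against 306 of 9479 tested genes (3.23%). The letters of GAS, TTCNNNGAA, were found in 7 of 25 (28.0%), against 7.41% of tested genes. These are matches of letters and show no binding. The windows below are the 160 bases that end just before the start, 5′ to 3′ on the strand of the gene, with the ISRE letters of either strand in capitals. They show the motif in members of different families that are described below: Isg15 (chr4:156200819-156200978, minus strand), Ifit1 (chr19:34640729-34640888, plus), Rsad2 (chr12:26456453-26456612, minus), Irgm1 (chr11:48871421-48871580, minus) and Gbp2 (chr3:142620503-142620662, plus).
Isg15: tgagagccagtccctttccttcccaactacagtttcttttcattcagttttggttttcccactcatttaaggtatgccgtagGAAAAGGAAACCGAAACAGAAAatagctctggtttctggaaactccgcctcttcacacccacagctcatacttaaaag
Ifit1: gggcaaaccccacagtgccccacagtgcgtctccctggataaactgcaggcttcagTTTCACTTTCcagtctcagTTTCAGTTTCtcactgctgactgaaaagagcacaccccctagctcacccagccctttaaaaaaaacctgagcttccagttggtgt
Rsad2: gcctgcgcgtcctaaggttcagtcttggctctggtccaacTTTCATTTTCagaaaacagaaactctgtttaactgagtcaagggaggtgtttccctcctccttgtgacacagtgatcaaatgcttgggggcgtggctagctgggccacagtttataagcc
Irgm1: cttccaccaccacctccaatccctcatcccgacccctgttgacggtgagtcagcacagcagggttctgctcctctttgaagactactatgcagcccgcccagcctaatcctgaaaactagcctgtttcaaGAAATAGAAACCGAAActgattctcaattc
Gbp2: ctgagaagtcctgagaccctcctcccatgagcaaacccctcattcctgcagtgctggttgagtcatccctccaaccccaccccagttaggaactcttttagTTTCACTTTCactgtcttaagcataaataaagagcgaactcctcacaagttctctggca
Isg15 had 3 overlapping matches in 1 run, the nearest ending 57 bases before the start. Ifit1 had 2 separate matches, 76 and 95 bases before it, and Irgm1 had 2 that overlap, the nearer 15 bases before it. Rsad2 and Gbp2 had 1 match each, 111 and 50 bases from the start. The GAS letters did not occur in these 5 windows.

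The comparison of the shRNAs addresses what less Pcgf1 does to transcripts in Runx1 Δ/Δ cells, and for the interferon-stimulated genes the changes were small and went both ways. Without a block, limma called 0 of 32 members at an adjusted p of 0.05, where 0.763% of all genes were called, and 6 members had an unadjusted p under 0.05 (12.2% of all genes did). With the mouse as a block, which compares the 2 cultures of each animal, 3 members passed (9.38%, against 5.32% of all genes): Gbp3 rose, while Zbp1 and Isg20 fell (2.91% of all genes rose and 2.42% fell in this fit). Of the members, 11 had an unadjusted p under 0.05 in that fit (34.4%, against 23.5% of all genes). The median log2 change of the 32 was −0.06, with 10 higher and 22 lower, beside 0.00 for all genes tested. Their changes ran from −0.64 to 0.55, 4 members reached an absolute log2 change of 0.5 (8.5% of all genes did) and 0 reached 1 (1.83% of all genes). In the individual mice the median was −0.14, 0.02, −0.08 and −0.01. The same direction in 4 of 4 mice was seen in 14 members (43.8%, against 31.8% of all genes), higher in 4 (15.6% of all genes: Ifitm2, Ifitm3, Gbp3 and Ifi47) and lower in 10 (16.2% of all genes: Igtp, Zbp1, Gbp2, Adar, Ifitm6, Ifih1, Oasl1, Isg20, Oas1a and Eif2ak2).

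**Figure D1:**
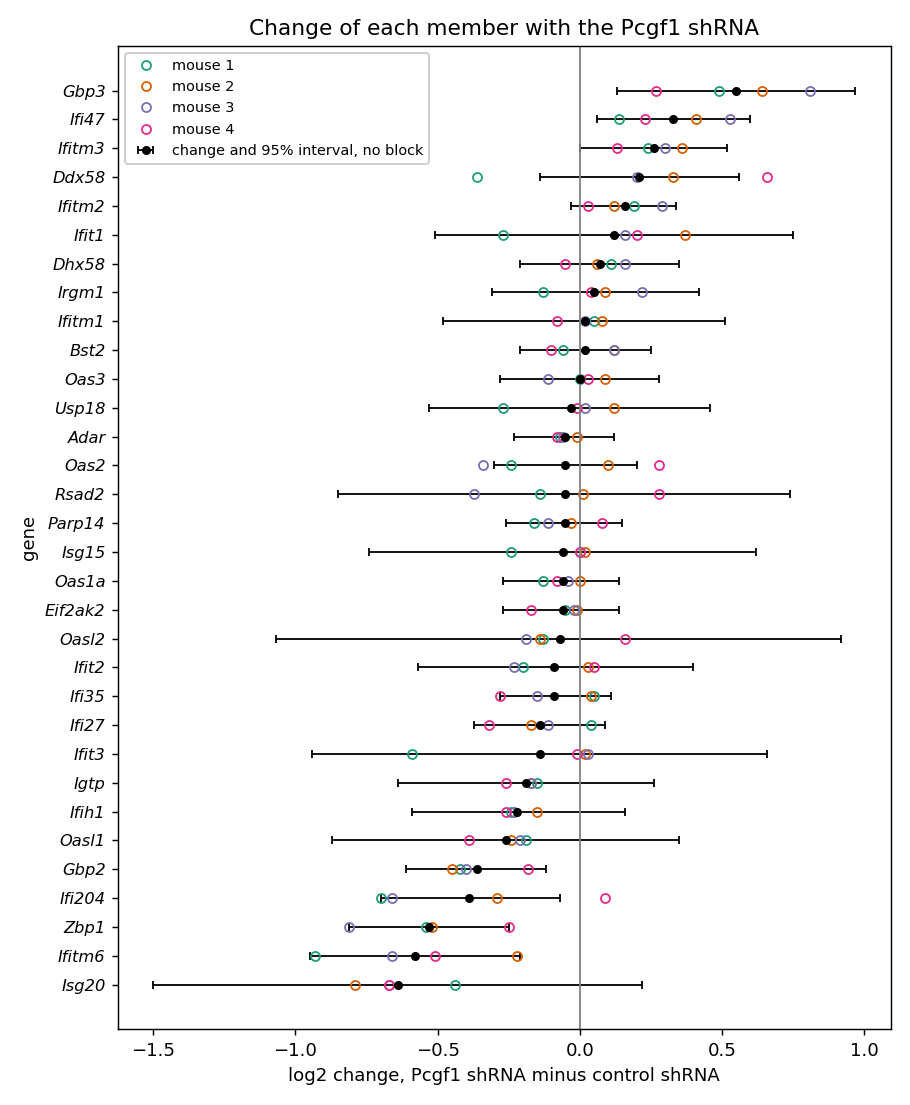
Log2 change of each of the 32 tested interferon-stimulated genes, Pcgf1 shRNA minus control shRNA, one gene per line. Black points and bars are the change and its 95% interval in the fit without a block, and open circles are the difference within each mouse. Gbp3 (0.55), Ifi47 (0.33) and Ifitm3 (0.26) lie furthest to the right and Isg20 (−0.64), Ifitm6 (−0.58) and Zbp1 (−0.53) furthest to the left, and the bars of Oasl2, Ifit3, Rsad2 and Isg15 are wide on both sides of 0.

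Zbp1 encodes a sensor of nucleic acid in the left-handed Z form that can start necroptosis. It read −1.18, −1.08, −1.53 and −1.15 with the Pcgf1 shRNA in mice 1 to 4, against −0.65, −0.56, −0.73 and −0.90 with the control shRNA. All 4 knockdown values lay below all 4 control values. The log2 change was −0.53 (SE 0.12, 1.44-fold lower, limma adjusted p = 0.115), and with the mouse as a block the adjusted p was 0.0475. Without mouse 4 the change was −0.62, with an adjusted p of 0.0729 without the block and 0.0599 with it.

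The guanylate-binding proteins are interferon-induced GTPases that assemble on the membranes of vacuoles that hold pathogens, and Gbp3 was higher and Gbp2 lower with the Pcgf1 shRNA. Gbp3 read 0.78, 0.67, 1.25 and 0.38 with the Pcgf1 shRNA in mice 1 to 4, against 0.29, 0.04, 0.44 and 0.11 with the control shRNA. It was higher in each mouse, although the lowest knockdown value, of mouse 4, lay under the highest control value, of mouse 3. Its log2 change was 0.55 (SE 0.18, 1.47-fold), and Gbp3 passed in the fit with the mouse as a block (adjusted p = 0.0434) and not in the fit without it (0.271). Gbp2 read −1.05, −1.17, −1.15 and −0.77 with the Pcgf1 shRNA, against −0.63, −0.72, −0.75 and −0.58 with the control shRNA, so its groups did not overlap either. Zbp1 and Gbp2 were the 2 members of 32 (6.25%) whose groups were apart, as were those of 7.16% of all genes (2.91% lower with the Pcgf1 shRNA, the direction of both). The log2 change of Gbp2 was −0.36 (SE 0.11), with an adjusted p of 0.215 without the block and 0.0548 with it. Without mouse 4 it was −0.42 and passed without the block (adjusted p = 0.0486), the 1 member called there.

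Isg20 encodes an exonuclease that degrades RNA, and it had the largest change of the 32. It read 1.35, 1.33, 0.85 and 2.30 with the Pcgf1 shRNA in mice 1 to 4, against 1.79, 2.12, 1.53 and 2.97 with the control shRNA. Each mouse's knockdown culture was lower than its control culture, but the groups overlapped widely, with mouse 4 high and mouse 3 low in both. The log2 change of −0.64 (1.56-fold lower) had an adjusted p of 0.551 without the block (SE 0.38) and 0.0203 with it, where its 95% interval was −0.85 to −0.44. A second Isg20 probe gave −0.67 and was also lower in each mouse. With slide as a block limma called 0 of the 32 members (0.907% of all genes). With the mouse as a block, Isg20 was the 1 member still called without mouse 1 (−0.71, adjusted p = 0.0460), and 0 members were called with the block when mouse 2, 3 or 4 was left out.

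**Figure D2:**
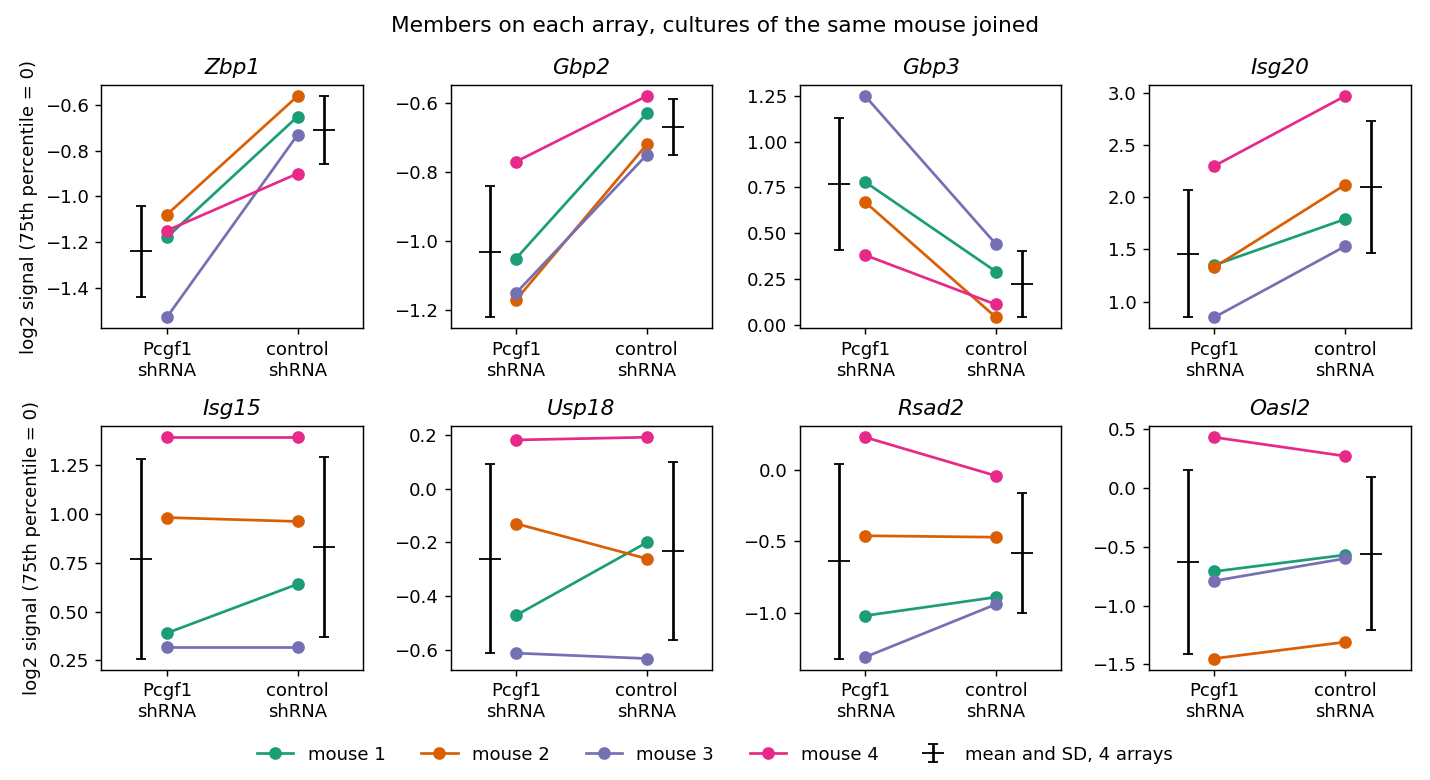
Log2 signal of 8 interferon-stimulated genes on each array (vertical axes, 75th percentile of the array at 0), Pcgf1 shRNA left of control shRNA, with lines joining the 2 cultures of a mouse and black bars for mean and SD of 4 arrays. In the upper row the lines of Zbp1, Gbp2 and Isg20 all run up towards the control and those of Gbp3 all run down, while in the lower row, for Isg15, Usp18, Rsad2 and Oasl2, mouse 4 is highest in both groups and the lines of the 4 mice run in different directions.

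The interferon-induced transmembrane proteins, which block the fusion of viruses with cell membranes, were mixed. Ifitm6 was lower, at −3.18, −2.57, −2.96 and −3.18 with the Pcgf1 shRNA, against −2.25, −2.34, −2.30 and −2.67 with the control shRNA (log2 change −0.58, SE 0.16, adjusted p = 0.183, or 0.0554 with the mouse as a block). Its groups overlapped by 1 culture, the knockdown of mouse 2. Ifitm3 read 4.80, 4.89, 4.83 and 4.46 with the Pcgf1 shRNA, against 4.57, 4.53, 4.53 and 4.33 with the control shRNA, a log2 change of 0.26 (SE 0.11, adjusted p = 0.422, or 0.103 with the block). Ifitm2 read 3.12, 3.07, 3.10 and 2.89, against 2.93, 2.95, 2.81 and 2.86 with the control shRNA (0.16, SE 0.08, adjusted p = 0.508). Both were higher within each mouse, with the cultures of mouse 4 at or near the low end of their groups. A second Ifitm2 probe (0.19) was higher in mice 1 to 3 and lower in mouse 4, at 1.86 with the Pcgf1 shRNA against 1.93 with the control shRNA. Ifitm1 averaged 5.61 ± 0.37 with the Pcgf1 shRNA and 5.59 ± 0.31 with the control shRNA (SD, n = 4 each), a change of 0.02 with a 95% interval of −0.48 to 0.51, or −0.15 to 0.19 with the block. The sign of this value turned under 3 other settings and without mouse 2.

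Of the immunity-related GTPases, which guard against intracellular pathogens in mouse cells, Ifi47 was higher with the Pcgf1 shRNA, at 1.57, 1.66, 1.79 and 1.89 against 1.43, 1.25, 1.26 and 1.66 with the control shRNA. The log2 change was 0.33 (SE 0.12, adjusted p = 0.318, or 0.0961 with the block), and the groups overlapped. Igtp read 3.07, 3.08, 2.72 and 3.43 with the Pcgf1 shRNA, against 3.22, 3.25, 2.89 and 3.69 with the control shRNA, a small difference (−0.19, SE 0.20, adjusted p = 0.748, or 0.158 with the block) that was lower in each mouse. Irgm1, a regulator of the other GTPases of this family, had a log2 change of 0.05 (95% interval −0.31 to 0.42).

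Ifi204, a member of the p200 family that binds DNA, read 0.96, 1.21, 0.82 and 1.33 with the Pcgf1 shRNA, against 1.66, 1.50, 1.48 and 1.24 with the control shRNA. It was lower in mice 1 to 3 and higher in mouse 4, with a log2 change of −0.39 (SE 0.14, adjusted p = 0.308). Without mouse 4 the change was −0.55 (adjusted p = 0.0758). The other 2 Ifi204 probes gave −0.43 each.

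Among the RNA sensors and their partners other than Zbp1, 0 passed in either fit. Ifih1, which encodes MDA5, a sensor of long double-stranded RNA, was at −0.29, −0.15, −0.35 and 0.20 with the Pcgf1 shRNA, against −0.05, 0.00, −0.12 and 0.46 with the control shRNA. It was lower in each mouse (log2 change −0.22, SE 0.16, adjusted p = 0.654, or 0.118 with the block). Ddx58, which encodes the sensor RIG-I, had a log2 change of 0.21 (95% interval −0.14 to 0.56) and was lower in mouse 1 and higher in mice 2 to 4. A second Ddx58 probe that passed the filter gave 0.31 and was higher in 4 of 4 mice. The intervals were narrower for Dhx58 (0.07, −0.21 to 0.35), Eif2ak2, the kinase PKR that stops translation (−0.06, −0.27 to 0.14), and Adar, an editor of double-stranded RNA (−0.05, −0.23 to 0.12; 0.02 on a second probe).

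The other antiviral effectors differed little between the shRNAs. Oas1a, Oas2 and Oas3, which encode synthetases of the oligoadenylates that activate RNase L, had log2 changes of −0.06, −0.05 and 0.00, with 95% intervals between −0.30 and 0.28. The log2 change was −0.14 for Ifi27 (−0.37 to 0.09), −0.09 for Ifi35 (−0.28 to 0.11), −0.05 for Parp14, an ADP-ribosyltransferase (−0.26 to 0.15), and 0.02 for Bst2, which tethers virus particles to the cell surface (−0.21 to 0.25). The 3 probes of Parp14 disagreed in sign, at 0.25, −0.05 and −0.20. These intervals do not reach 0.5 in either direction.

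Members also differed between the mice. In the fit with both terms, an F test over the 4 mice (limma, Benjamini-Hochberg over all genes) passed for 12 of 32 members (37.5%), against 9.81% of all genes. They were Isg15, Usp18, Ifit1, Ifit2, Ifit3, Oasl1, Oasl2, Ifih1, Igtp, Isg20, Rsad2 and Ifitm1. Of the sum of squares over the 8 arrays, the mice held a median of 78.9% in the members (55.8% over all genes) and the shRNA 10.9% (12.8%). The mouse term has 3 degrees of freedom and the shRNA 1, so these shares are unequal without any effect, and the mouse share was the larger in 24 of 32 members (75%), against 79.1% of all genes. The count from the F test rests on mouse 4. Without its 2 arrays the F test passed for 0 of 32 members (8 with an unadjusted p under 0.05) and for 0.0347% of all genes, while it passed for 9, 5 and 8 members without mouse 1, 2 or 3. In 14 members (43.8%) both arrays of mouse 4 lay above the other 6, as in 12.1% of all genes, and in 3 members (9.38%: Ifitm1, Ifitm3 and Oas1a) they lay below, as in 19.5% of all genes. The count above was 14, 12 and 10 with quantile scaling, with normexp background correction and with scaling to the median of detected probes, against 15.3%, 9.57% and 7.84% of all genes. Mouse 4 was singled out after the values were seen, and cells of 1 animal, their culture and their handling cannot be told apart.

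**Figure D3:**
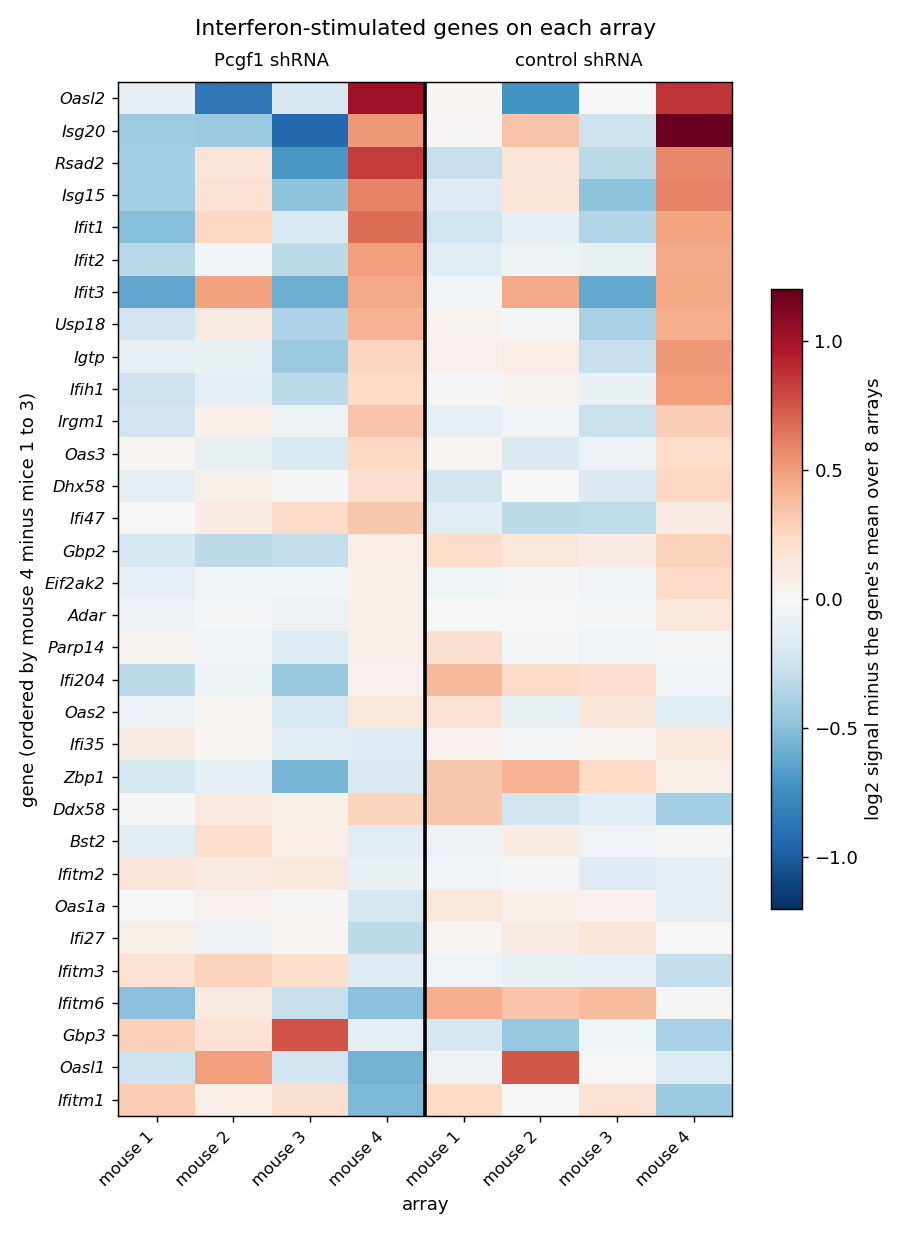
Log2 signal of the 32 tested interferon-stimulated genes on each array minus the mean of the gene over the 8 arrays (colour, red above and blue below), 4 Pcgf1 shRNA arrays left of 4 control shRNA arrays. Genes run from the largest to the lowest difference between mouse 4 and mice 1 to 3. In the upper rows the mouse 4 columns of both groups are red, from Oasl2 (difference 1.26) and Isg20 (1.14) on, and at the foot, for Oasl1 (−0.49) and Ifitm1 (−0.66), they are blue.

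The genes with this pattern were chosen for description after their values were seen, except Oasl2, Rsad2 and Oasl1, which are among the widest ranges. Oasl2, an OAS-like gene, read −0.71, −1.45, −0.79 and 0.43 with the Pcgf1 shRNA in mice 1 to 4, against −0.57, −1.31, −0.60 and 0.27 with the control shRNA. The order of the mice was the same in both groups, with mouse 4 highest and mouse 2 lowest, and the change was −0.07 (95% interval −0.28 to 0.14 with the mouse as a block). Rsad2, which encodes viperin, an enzyme that makes a nucleotide that ends viral RNA chains, read −1.02, −0.46, −1.31 and 0.23 with the Pcgf1 shRNA, against −0.89, −0.47, −0.94 and −0.04 with the control shRNA. Its log2 change was −0.05 (interval with the block −0.34 to 0.23). Its other 2 probes were also higher in mouse 4, by 0.86 and 1.09 over the mean of mice 1 to 3.

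Isg15, a ubiquitin-like protein that is joined to other proteins, read 0.39, 0.98, 0.32 and 1.39 with the Pcgf1 shRNA, against 0.64, 0.96, 0.32 and 1.39 with the control shRNA. Usp18, the protease that removes it and also restrains the type I receptor, read −0.47, −0.13, −0.61 and 0.18, against −0.20, −0.26, −0.63 and 0.19 with the control shRNA. In both genes the 2 cultures of mouse 4 were nearly equal and were the highest of all, mouse 3 was lowest, and the log2 changes with the Pcgf1 shRNA were −0.06 and −0.03 (intervals with the block −0.25 to 0.13 and −0.25 to 0.18). The IFIT proteins bind viral RNA that lacks the marks of host RNA. Ifit1 read −4.51, −3.75, −4.19 and −3.33 with the Pcgf1 shRNA, against −4.24, −4.12, −4.35 and −3.53 with the control shRNA. Ifit2 read −2.56, −2.26, −2.55 and −1.73, against −2.36, −2.29, −2.32 and −1.78 with the control shRNA. Mouse 4 was highest for both genes in either group. Ifit3 read −3.56, −2.45, −3.52 and −2.48 with the Pcgf1 shRNA, against −2.97, −2.48, −3.55 and −2.47 with the control shRNA, with mice 2 and 4 alike and above mice 1 and 3. The log2 changes of the 3 genes were 0.12, −0.09 and −0.14 (intervals with the block −0.17 to 0.40, −0.29 to 0.11 and −0.45 to 0.17).

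Not all members with a mouse difference followed mouse 4. Oasl1, which in mouse cells limits the translation of Irf7, read −0.74, 0.01, −0.71 and −1.06 with the Pcgf1 shRNA, against −0.55, 0.25, −0.49 and −0.66 with the control shRNA. Mouse 2 was highest and mouse 4 lowest in both groups, and the knockdown culture was lower in each mouse (log2 change −0.26, SE 0.27, adjusted p = 0.748, or 0.0968 with the block). Ifitm1 read 5.90, 5.68, 5.79 and 5.06 with the Pcgf1 shRNA, against 5.84, 5.60, 5.77 and 5.15 with the control shRNA, so that its lowest values were those of mouse 4. The ISRE letters were present in 6 of 12 members with both mouse 4 arrays above the rest that had a promoter window (50.0%) and in 6 of 13 other tested members (46.2%).

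Of the 4 dim members, 3 read highest in mouse 4. Iigp1, an immunity-related GTPase, read −7.43, −6.15, −6.16 and −3.61 with the Pcgf1 shRNA in mice 1 to 4, against −5.86, −6.85, −6.40 and −3.40 with the control shRNA, and was well above background on 1 of 4 arrays of each group. Ifi44 read −7.04, −7.58, −7.47 and −4.96, against −7.18, −6.08, −7.74 and −4.92 with the control shRNA, also with 1 array of each group above background. Gbp4 read −6.29, −6.03, −6.31 and −4.88, against −6.29, −7.02, −5.47 and −5.09 with the control shRNA, above background on 1 and 2 arrays. Values under about −5.94 to −5.22, the lowest signals called above background on the 8 arrays, have no reliable order. Gbp6 read −5.95, −5.58, −6.89 and −7.13 with the Pcgf1 shRNA, where 0 of 4 arrays were above background, against −5.04, −5.44, −4.98 and −6.05 with the control shRNA, where 2 of 4 were.

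Mice 3 and 4 shared a slide. Within it, both arrays of mouse 4 lay above both of mouse 3 for 16 of 32 members (50.0%), against 19.6% of all genes, with a log2 difference of 1.44 for Isg20, 1.22 for Rsad2, 1.07 for Isg15, 1.06 for Ifit3 and 1.05 for Oasl2. Over the 32 members the median difference between mouse 4 and mice 1 to 3 was 0.16, beside −0.05 for all genes.

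**Figure D4:**
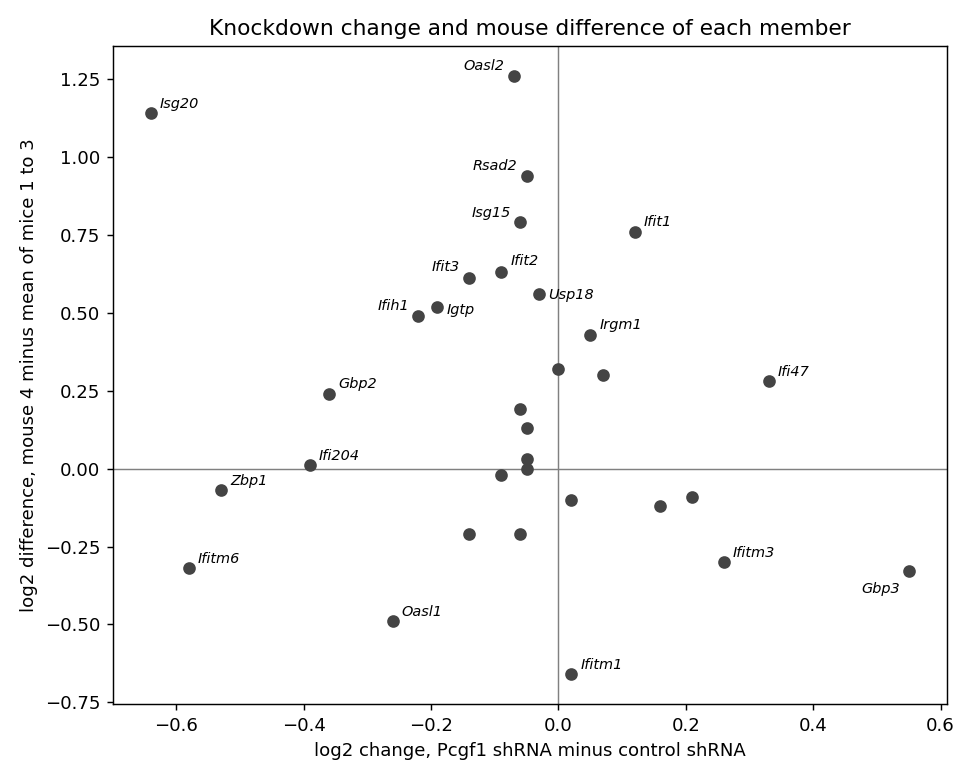
For each of the 32 tested interferon-stimulated genes, the log2 change with the Pcgf1 shRNA (horizontal) and the log2 difference between mouse 4 and mice 1 to 3 (vertical), with the genes furthest from 0 named. Oasl2, Rsad2, Isg15, Ifit2 and Usp18 lie high and close to 0 on the horizontal axis, Zbp1 and Ifi204 lie to the left near 0 on the vertical axis, and Isg20 (−0.64 and 1.14) lies far out on both.

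Markers of other cells differed between the shRNAs as well. The summed linear signal of neutrophil markers (12 of 13 matched, Mmp9 and Retnlg never above background) was 12.1 to 45.7 with the Pcgf1 shRNA and 85.6 to 234 with the control shRNA, lower in 4 of 4 mice. S100a9 and S100a8 made up 96.2% of this sum over the 8 arrays, but gene by gene 9 of 10 tested markers were lower, 8 of them called with the mouse as a block. Ngp, a granule protein of maturing neutrophils, and Ltf were above background on 0 of 4 knockdown and 4 of 4 control arrays. Both are among these 8 and passed the filter only through the control group. The filter thus favours a lower value for them, and the size of their change is not reliable. Cxcr2, a chemokine receptor of neutrophils, rose with the block (log2 change 0.54, adjusted p = 0.0194) and was higher in 4 of 4 mice. For monocyte and macrophage markers (11 of 12 matched) the sums were 66.6 to 107 with the Pcgf1 shRNA and 71.4 to 139 with the control shRNA, lower in 4 of 4 mice, and 3 of 11 genes fell with the block.

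All 10 erythroid markers had a lower mean with the Pcgf1 shRNA, and 4 (Klf1, Ermap, Tfrc and Car2) fell with the block. Their sum, 84.5% of it from the globins Hbb-bt and Hba-a1, was 232 to 610 with the Pcgf1 shRNA and 444 to 750 with the control shRNA, lower in 3 of 4 mice. Conventional dendritic cell markers were lower in 8 of 8 tested genes, 1 of them (Zbtb46) called with the block, and their sum was lower in 4 of 4 mice. For mast cells and basophils the sum was 36.7 to 50.9 with the Pcgf1 shRNA and 42.1 to 64.8 with the control shRNA. It was lower in 4 of 4 mice, and Cpa3 and Cma1 made up 75.1% of it. Of 9 tested genes 3 fell with the block, while 3 had a higher mean. Among the latter were Mcpt8 (log2 change 0.59, higher in 3 of 4 mice) and Hdc (0.25, higher in 4 of 4), called in neither fit. Most stromal and endothelial markers were dim: 5 of 10 were tested, and Col3a1, Lepr and Cdh5 were never above background. Pecam1 was not dim, with a mean of 0.50 with the Pcgf1 shRNA and −0.02 with the control shRNA. The sum of the list was 2.26 to 2.42 with the Pcgf1 shRNA and 1.62 to 1.97 with the control shRNA, higher in each mouse. Pecam1 alone made up 58.7% of this sum over the 8 arrays. Pecam1 and Pdgfrb together made up 79.4% of it, and both rose with the block. The tested genes went both ways, and Col1a2 (−0.34) and Kdr (−0.53) were lower in 4 of 4 mice. Without the block 3 neutrophil genes (Ngp, Fpr1 and Fpr2) and 1 mast cell gene of these lists were called, all lower. Of the HSPC markers, Cd34 was called higher without the block (log2 change 0.94, limma adjusted p = 0.0251). In that list 5 of 10 genes had a higher mean with the Pcgf1 shRNA and 5 a lower one. The part of these shifts in the lower values of Zbp1, Isg20, Gbp2 and Ifitm6 was not tested, and in bulk RNA fewer cells of a type and less RNA per cell cannot be told apart.

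Both arrays of mouse 4 also lay beyond the other 6 for some markers, in shares that differed by list. Over all genes they lay above in 12.1% and below in 19.5%. Of 10 tested neutrophil markers 0 lay above and 1 below, and of 10 tested erythroid markers 4 lay above and 0 below. Plasmacytoid dendritic cells are a main source of type I interferon, and of 9 tested genes of their list both arrays of mouse 4 lay above the other 6 for 5: Spib (3.07 above the mean of mice 1 to 3), Ccr9 (2.06), Cox6a2 (1.70), Tcf4 (0.56) and the pathway gene Irf7 (0.52). Irf8 was highest in mouse 4 within each group (0.34), while Klk1 and Il3ra were below the other 6 arrays. With the Pcgf1 shRNA Spib, a transcription factor of these cells, fell in the fit with the mouse as a block (−0.72, adjusted p = 0.0294), as did Irf8, described below. Their surface marker Siglech was above background only in mouse 4, at −4.23 with the Pcgf1 shRNA and −4.12 with the control shRNA (other arrays −8.25 to −7.06). The linear sum of the list, 33.7 to 39.8 with the Pcgf1 shRNA and 36.4 to 39.3 with the control shRNA, had mouse 4 inside both ranges, but 72.2% of it came from Bst2, itself a member.

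The erythroid sum was highest in mouse 4 within each group, at 610 with the Pcgf1 shRNA and 750 with the control shRNA, beside 749 in the control culture of mouse 2. Klf1, a transcription factor of red cell precursors, exceeded the mean of mice 1 to 3 by 1.80, Ermap by 1.75, Car2 by 1.41 and Epor, the erythropoietin receptor, by 1.31. The conventional dendritic cell sum of mouse 4 was also the highest of each group, at 42.1 with the Pcgf1 shRNA and 57.3 with the control shRNA (other mice 9.12 to 26.6 and 30.8 to 50.6, with 9 of 10 matched). The MHC class II genes Cd74 and H2-Ab1 made up 87% of it. Flt3 and Zbtb46 of this list lay above the other 6 arrays in mouse 4, whereas Batf3, at 0.06 in both cultures, and Xcr1 lay below them. The monocyte sum of mouse 4 was the lowest, at 66.6 with the Pcgf1 shRNA and 71.4 with the control shRNA, although Cx3cr1 was highest there, and its neutrophil sum was the lowest too, at 12.1 and 85.6. The part of these cells in the mouse difference was not tested.

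Upstream of the members, transcripts of the interferons were hardly detected. Of 8 matched interferon genes, Ifnb1, Ifna4, Ifna11, Ifng, Ifne, Ifnk and Ifnl3 were above background on 0 of 8 arrays. Ifna1, which has close paralogues that its probe may also detect, was dim and averaged −5.16 ± 0.28 with the Pcgf1 shRNA and −4.48 ± 0.31 with the control shRNA (SD, n = 4 each), a change of −0.68 with an adjusted p of 0.186, or 0.129 with the mouse as a block.

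Of 19 tested genes of receptors and signalling 0 passed without the block, and Irf8, which guides monocytes and dendritic cells, fell with it. Irf8 read 2.02, 2.19, 2.10 and 2.60 with the Pcgf1 shRNA, against 2.54, 2.64, 2.79 and 2.83 with the control shRNA (log2 change −0.47, SE 0.14, adjusted p = 0.219, or 0.0485 with the block). Next by p were Irf5 (−0.47, adjusted p = 0.345), Jak2 (−0.24, 0.582) and Socs3, a feedback inhibitor (−0.26, 0.610). Of 14 tested genes of nucleic acid sensing and interferon induction 0 passed in either fit. The smallest p were those of Trex1, a nuclease that clears cytosolic DNA (−0.34, adjusted p = 0.115, or 0.0628 with the block), Samhd1, which depletes nucleotides (−0.22, 0.362), Irak4 (0.13, 0.610) and Ikbke (−0.26, 0.638).

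Of 43 other interferon-inducible genes outside the 40, 0 passed without the block and 5 with it, all lower with the Pcgf1 shRNA. Ifi27l2a averaged 2.14 ± 0.37 with the Pcgf1 shRNA and 3.04 ± 0.14 with the control shRNA (SD, n = 4 each), a log2 change of −0.90 (SE 0.18, adjusted p = 0.0678, or 0.0337 with the block), and its groups did not overlap. Ly6a, the stem cell antigen Sca-1, fell with the block (−0.68, adjusted p = 0.0285), as did Slfn2, which supports quiescence of immune cells (−0.76, 0.0294). Ms4a4c (−0.98, 0.0291) and Ciita, the activator of MHC class II genes (−1.13, 0.0444), were lower in each mouse and far higher in mouse 4, by 1.85 and 2.22 over mice 1 to 3. Tap2, a peptide transporter of antigen presentation, was 0.32 higher (adjusted p = 0.205, or 0.122 with the block). Over the 4 lists 6 of 77 genes passed with the block, all lower, where 2.42% of all genes fell. With 1 mouse left out the block gave 0 or 1 call among the 77, and the fit without the block gave 5 without mouse 4, all lower, and 0 without any other mouse.

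As a description over the 8 arrays, each member was scaled to unit variance and the members were averaged. The average was −0.38, 0.14, −0.52 and 0.29 with the Pcgf1 shRNA in mice 1 to 4, against 0.17, 0.06, −0.26 and 0.50 with the control shRNA, highest in mouse 4 and lowest in mouse 3 within each group. Among the non-member genes with a symbol Irf7, a factor that is itself induced by interferon, followed it most closely (r = 0.97 over 8 arrays). Irf7 read −0.63, −0.25, −0.82 and −0.07 with the Pcgf1 shRNA, against −0.36, −0.33, −0.74 and 0.06 with the control shRNA. It was followed by C1galt1 (0.966), Pon2 (0.951), Gpr183 (0.949), Cx3cr1 (0.94), Cdk17 (0.936), Tmem14c (0.927), Mbd2 (0.923), Gtf2h3 (0.917) and Mob3c (0.917). These 8 arrays share 4 animals and 2 slides, and the values carry no p. Against the average of the other members, Usp18 (0.93), Isg15 (0.89) and Igtp (0.89) were the closest members, whereas Gbp3 (−0.80), Ifitm1 (−0.78) and Ifitm3 (−0.71) ran against it.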

How the data were processed

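RNA of 8 cultures, 4 with the Pcgf1 shRNA and 4 with the control shRNA, was measured on 1-colour Agilent arrays. Per the file headers, each deposited spot intensity is background-subtracted and spatially detrended, with no normalization between arrays, and was made with Agilent Feature Extraction 10.1 per the submitters' processing notes. The authors' deposited value table of log2 values, which is centred per probe, served as an alternative. The log2 intensity was shifted to a 75th percentile of 0 on each array. Left out were control spots and 242 values of non-uniform spots. Probes were named through their RefSeq accession (24375 of 41174), and 22747 were kept, each above background on 4 arrays of at least 1 group, for 17302 genes. The main test was limma (version 3.58.1, R 4.3.3; lmFit and eBayes), two-sided, with an adjusted p of 0.05 (Benjamini-Hochberg across all genes) and without a block. Since the labels name the mouse of each culture, the fit with the mouse as a block stands beside it, and the resemblance of its arrays is given with the data. The 2 slides held mice 1 and 2 and mice 3 and 4. Motifs were searched in RefSeq promoter windows of GRCm38.p6. The procedure was tested on simulated data.

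The members, the pathway and marker lists and the tests were chosen with earlier results of these data known. Values on every array are given for members that passed either fit, the 8 with the smallest p and the 8 with the widest range. Of each pathway list, genes that passed either fit and the 4 with the smallest p are named. Genes with a mouse difference were added after their values were seen. Alternatives covered the block, slide, scaling, background, filter, probe rule, array weights, the value table and each mouse left out.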

Additional observations from a re-analysis of the deposited data

Results flagged for a closer look

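Over 66 groups of 4 arrays (32 members and Pcgf1, 2 shRNAs), 4 held an array far from the other 3, with a gap above 0.829 of the group's range. Chance flags about 1 group in 20. All 4 were the control shRNA culture of mouse 4. Ifit2 read −1.78 there, against −2.36 to −2.29 in the other 3 control cultures, Eif2ak2 0.27 against −0.01 to 0.02, and Adar 1.10 against 0.94 to 0.96. Ifitm3 was lower in it, at 4.33 against 4.53 to 4.57.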

How the results depend on the processing

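Genes called over the whole array numbered 132 (78.0% higher), and 921 (54.6% higher) with the replicate block, 27 (55.6%) with scaling to the median of detected probes, 76 (67.1%) with normexp, 0 without the filter on dim probes (2199 unadjusted), 1652 (58.2%) with array weights, and 0 to 363 when 1 mouse was left out (with the replicate block 284 without mouse 1, 0 without mouse 2 and 306 without mouse 3). Interferon-stimulated genes called numbered 0, and 3 with the replicate block, 4 with array weights (Ifitm3 0.34, Ifi47 0.32, Zbp1 −0.47 and Gbp2 −0.46) and 0 to 1 without 1 mouse. Other pathway genes called numbered 0, and 6 with the replicate block, 9 with array weights (7 lower) and 0 to 5 without 1 mouse (5 without mouse 4). Interferon-stimulated genes that differed among mice numbered 12, 11 with quantile scaling and 0 to 9 without 1 mouse. The median change of the members stayed between −0.09 and −0.02. The Pcgf1 change was −1.36 without the filter (adjusted p = 0.104) and −1.38 to −1.34 without 1 mouse, where limma lost the call without mouse 1, 2 or 3 in the fit without a block and without mouse 2 in the fit with the replicate block (adjusted p = 0.0896).

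Of 576 recomputed member changes 34 turned sign, in 11 genes, and 0 of those passed. With array weights these were Isg15 at 0.16, Ifit3 at 0.26, Ifitm1 at 0.00, Oasl1 at 0.14, Rsad2 at 0.12 and Usp18 at 0.09. With normexp they were Ifit1 at −0.04, Ifitm1 at −0.01 and Oas3 at 0.04, with the median of detected probes Ifitm1 and Bst2 at −0.01, and with the mean over probes Parp14 at 0.00. Without 1 mouse, with or without the replicate block, Isg15 ranged from −0.08 to 0.01, Ifit3 from −0.19 to 0.01, Ifitm1 from 0.00 to 0.05, Oas2 from −0.16 to 0.04, Oas3 from −0.03 to 0.04, Rsad2 from −0.17 to 0.05, Usp18 from −0.09 to 0.05 and Bst2 from −0.01 to 0.06. The causes were not tested.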

Other observations

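A probe of Ifi204 that was not used above, the dimmest of 3, read −5.07, −4.42, −5.21 and −0.23 with the Pcgf1 shRNA in mice 1 to 4, against −4.27, −4.08, −4.55 and −0.31 with the control shRNA. Mouse 4 thus exceeded mice 1 to 3 by 4.34, the largest such difference among the probes of members with several probes, whereas the other 2 Ifi204 probes differed by 0.01 and −0.21. What sets this probe apart was not tested.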
